A study of Mus musculus with 8 samples.

Results

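Folate and one-carbon metabolism was followed through 8 genes: the uptake proteins Folr1 and Slc19a1, the cytosolic enzymes Shmt1 and Mthfd1, the mitochondrial enzymes Shmt2, Mthfd2 and Mthfd1l, and the thymidylate synthase Tyms. The genes were taken by symbol from the 26608 gene symbols in the count files, and all 8 were present. Expression was measured by SAGE, in which 1 short tag per transcript is sequenced and counted, in laser-dissected neural tube tissue of embryos of the FVB mouse strain at embryonic day 8.5. All embryos came from diabetic dams, so the control tissue shared the maternal diabetes, and the sources used here do not say how the diabetes arose. The 4 open neural tube libraries (numbers 9, 10, 13 and 14) held tissue directly anterior to closure site 1, the place where the neural folds first meet. The 4 protrusion libraries held outgrowths cut from the open neural plate, of which protrusion 1 was labelled separated and protrusions 2, 3 and 4 attached. No label ties a library to an embryo of its own, and protrusions 1 and 2 have titles with a common stem. The p-values below therefore measure only how far these libraries scatter, part of which may be technical.

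Folates carry single carbon units for the synthesis of purines and thymidylate and for the remethylation of homocysteine to methionine. In mitochondria, serine hydroxymethyltransferase 2 (Shmt2) takes the carbon from serine, Mthfd2 oxidises it, and Mthfd1l releases it as formate, which Mthfd1 reattaches to folate in the cytosol. Folate supply is closely tied to neural tube closure, since folic acid supplements lower the risk of neural tube defects in human pregnancy and loss of Folr1 or of Mthfd1l in mice leaves the neural tube open.

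In SAGE the counted tag lies at the CATG site nearest to the poly(A) tail, because the anchoring enzyme NlaIII cuts there. The sequences below show the tag predicted for each gene: the 3′-most CATG site (capitals) with 22 bases after it, 5′ to 3′, in the principal GENCODE M21 transcript (GRCm38).
Folr1: CATGggacctggccactcttgtgcag
Slc19a1: CATGtctgccccttagggctagtgag
Shmt1: CATGggtatgaatcccctcctggttt
Mthfd1: CATGtctatttacatagtgaaggtcc
Shmt2: CATGacacccgacttcgccctcagct
Mthfd2: CATGgctctacagaacctcaccagga
Mthfd1l: CATGcttaaccaaaccaggagtactg
Tyms: CATGgtgaatacccttgtctgggtaa
The site of Folr1 lay in the coding sequence and those of the other 7 genes in the 3′ UTR, between 50 bases (Mthfd1) and 829 bases (Mthfd2) from the transcript's end. None of the 8 sequences occurred in a reference transcript of another gene (0 for each). For Slc19a1, Mthfd1l and Shmt1 some reference transcripts end in another tag: the tag shown was shared by 2 of 4, 1 of 3 and 1 of 3 complete coding transcripts. The deposited files give reads per gene symbol and no tags, so which tags were counted was not tested. The reference is of strain C57BL/6J and of a later build than the mm9 named for the files.

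The libraries held 5668054 to 16655583 reads, so 3 reads, taken here as the limit of detection, stood for 0.180 to 0.529 CPM (a gene's reads scaled to a common library total). Open neural tube libraries detected fewer genes, 9920 to 11557 with at least 1 read, against 14575 to 16330 in protrusions, and this gap runs along with the groups in every comparison below. As a check of the tissue labels, the neural plate gene Sox2 was present in all 8 libraries (30.9 to 583 CPM), lowest in open neural tube 13, while Sox1 stood at 15.3 to 107.8 CPM in open neural tube and the separated protrusion but at 4.01 to 6.85 CPM in the attached protrusions. The 10 neural plate markers summed to 2900 to 3473 CPM in open neural tube, 2546 CPM in the separated protrusion and 1477 to 1641 CPM in the attached ones. The summed level of 9 primitive streak and axial progenitor markers was 5.23 to 47.8 CPM in open neural tube, 290.7 CPM in the separated protrusion and 862 to 1282 CPM in the attached ones. The 8 paraxial mesoderm markers summed to 98.6 to 419.5 CPM in open neural tube, 636 CPM in the separated protrusion and 1040 to 1450 CPM in the attached ones. These marker sums move with the groups, and their part in the values below was not tested. In bulk tissue fewer cells of a type and less RNA per cell cannot be told apart.

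The comparison of protrusions with open neural tube asks whether the outgrowths differ from open neural tube in the transcripts of folate handling. No change in the 8 genes was detected, which does not show that their levels were equal. In simulated counts the same edgeR fit called 2% of 50 genes changed 2-fold and 34% of 50 changed 4-fold. It called 34% of 50 changed 8-fold and 60% of 50 changed 16-fold. The changed genes were drawn at random from all genes tested, so these rates are not specific to the level of any of the 8 genes. Slc19a1, Shmt1, Mthfd1 and Shmt2 were well expressed in every library, with fitted changes no larger than 0.25 on the log2 scale, and the group ranges overlapped for all 8 genes. Mthfd2 had the largest fitted change, 13.2 ± 8.89 CPM in open neural tube and 30.8 ± 16.0 CPM in protrusions (SD, n = 4 each), which did not pass the test. Folr1 was low, with 8 to 27 reads in 4 libraries and none in the other 4.

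Of the 8 genes, 7 had enough reads to be tested with edgeR's quasi-likelihood test and 0 passed a Benjamini-Hochberg adjusted p of 0.05, a threshold passed by 0.607% of the 11036 genes tested (0.281% higher and 0.326% lower in protrusions). An unadjusted p under 0.05 was found for 0 of the 7 and for 15.3% of all genes tested. DESeq2 also called 0 of the 7 (7.39% of all genes with an adjusted p), as did limma-voom (3.35%) and limma-voom with sample weights (1.71%). Groups that did not overlap were found for 0 of the 8 genes and for 13.4% of all genes tested. The median log2 fold change of the 7 was 0.06, with 4 above 0, against 0.08 and 53.7% above 0 over all genes tested. The 8 genes together took 489.9 to 618 CPM in open neural tube libraries and 467 to 674 CPM in protrusions.

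**Figure D1:**
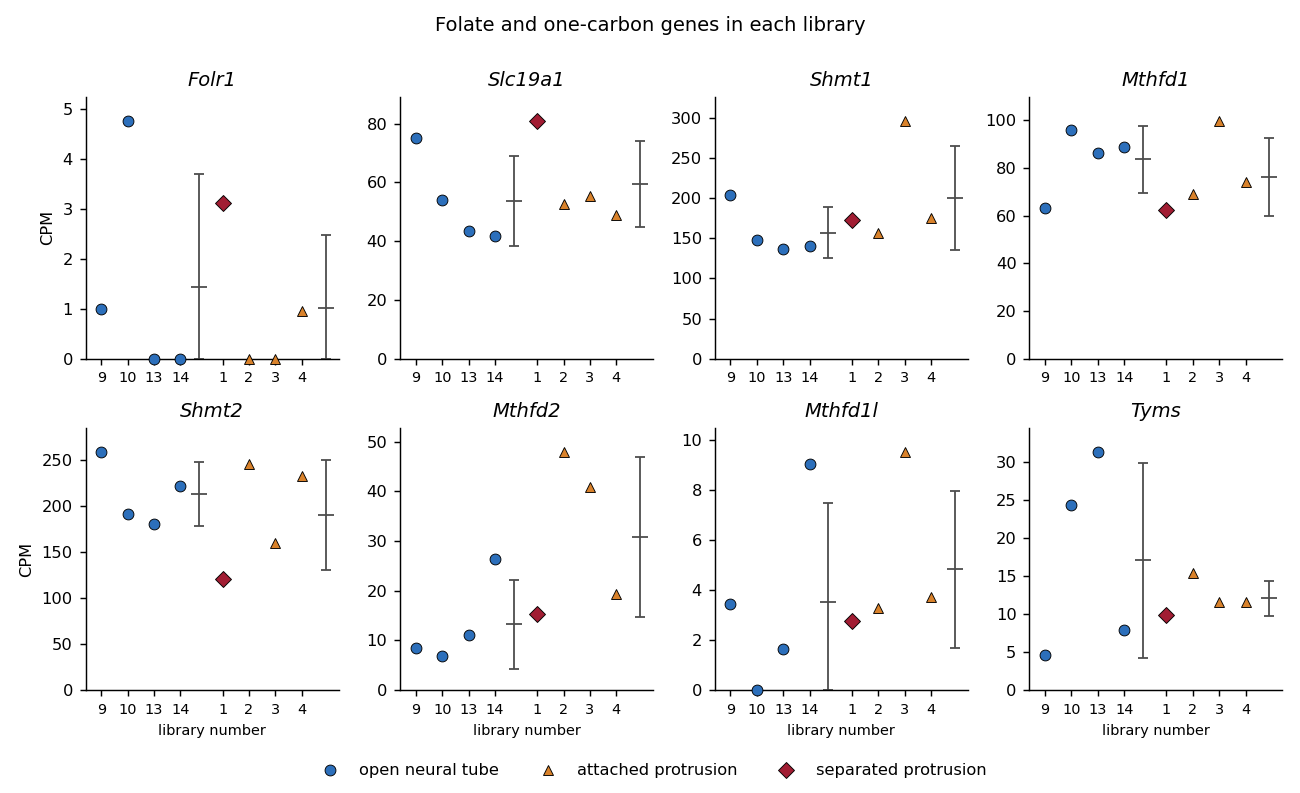
CPM of each gene (vertical axes, from 0) in the 8 libraries (horizontal axes, library numbers); circles are open neural tube, triangles attached protrusions and diamonds the separated protrusion, and grey bars give the mean ± SD of each group of 4, drawn down to 0 at most. The ranges of the groups overlap in all 8 panels; Mthfd2 spans 6.88 to 26.3 CPM in open neural tube and 15.2 to 47.9 CPM in protrusions.

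Of the uptake proteins, Slc19a1 is the reduced folate carrier, a membrane transporter, and Folr1 is folate receptor alpha, which binds folate at the cell surface and takes it up by endocytosis. Slc19a1 stood at 75.1, 54.0, 43.3 and 41.8 CPM in open neural tubes 9, 10, 13 and 14, and at 81.0, 52.6, 55.2 and 48.9 CPM in protrusions 1 to 4. The 2 highest values came from open neural tube 9 and the separated protrusion, and the other 6 lay within 41.8 to 55.2 CPM. The fitted log2 fold change was 0.06 ± 0.29 (SE; edgeR adjusted p = 0.956), with a 95% interval of −0.58 to 0.70, or 0.670-fold to 1.62-fold.

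Folr1 had 10, 27, 0 and 0 reads in open neural tubes 9, 10, 13 and 14 and 19, 0, 0 and 8 reads in protrusions 1 to 4. This corresponds to at most 4.76 CPM, in open neural tube 10, and 3.11 CPM in the separated protrusion. Reads were thus found in 2 of 4 libraries of each group. A count of 0 allows up to 0.180 and 0.358 CPM in open neural tubes 13 and 14 and up to 0.430 and 0.262 CPM in protrusions 2 and 3, for counting error only. Among 1364 genes of similar mean level, 63.8% of open neural tube values and 11.1% of protrusion values were at 0, so a count of 0 at this level does not show that the transcript was absent. The gene did not pass the low-count filter, and with no filter its log2 fold change was −0.46 ± 2.05 (edgeR adjusted p = 0.919). Slc19a1 exceeded Folr1 in all 8 libraries, on the CPM scale, which in SAGE does not grow with transcript length.

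In the cytosol, Shmt1 interconverts serine and glycine and Mthfd1 carries the folate-bound carbon between its oxidation states. Shmt1 stood at 203.8, 148, 136 and 141 CPM in open neural tubes 9, 10, 13 and 14 and at 173, 156, 297 and 175 CPM in protrusions 1 to 4. Protrusion 3 was the only library above 203.8 CPM, and the other 3 protrusions lay inside the open neural tube range. The fitted log2 fold change was 0.24 ± 0.22 (edgeR adjusted p = 0.700; 95% interval −0.26 to 0.74).

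Mthfd1 was the steadiest of the 8 genes, with a 1.60-fold span over the 8 libraries. It stood at 63.2, 96.2, 86.2 and 88.9 CPM in open neural tubes 9, 10, 13 and 14 and at 62.3, 69.0, 99.9 and 74.0 CPM in protrusions 1 to 4. Both groups thus covered nearly the same range. The log2 fold change was −0.23 ± 0.21 (edgeR adjusted p = 0.693; 95% interval −0.71 to 0.25), or 0.613-fold to 1.19-fold.

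Of the mitochondrial enzymes, Shmt2 was well expressed and Mthfd2 and Mthfd1l were lower. Shmt2, which feeds the mitochondrial folate pool from serine, stood at 258, 191, 179.9 and 221 CPM in open neural tubes 9, 10, 13 and 14 and at 120.2, 246, 160.1 and 233 CPM in protrusions 1 to 4. The separated protrusion had the lowest value of all 8 libraries, protrusion 3 the next lowest, and protrusions 2 and 4 lay inside the open neural tube range. The log2 fold change was −0.25 ± 0.26 (edgeR adjusted p = 0.739; 95% interval −0.83 to 0.34).

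Mthfd2, the mitochondrial methylenetetrahydrofolate dehydrogenase, is known for high activity in embryos and tumours. It stood at 8.49, 6.88, 11.1 and 26.3 CPM in open neural tubes 9, 10, 13 and 14, and at 15.2, 47.9, 40.9 and 19.2 CPM in protrusions 1 to 4. Protrusions 2 and 3 were above all open neural tubes, while open neural tube 14 was above protrusions 1 and 4. The log2 fold change was 1.12 ± 0.56 (unadjusted p = 0.0705, edgeR adjusted p = 0.376), with a 95% interval of −0.11 to 2.36 or 0.925-fold to 5.12-fold. Over 15 alternatives the adjusted p lay between 0.125 and 0.735, and the fitted change ranged from 0.85 without protrusion 2 to 1.74 without open neural tube 14.

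Mthfd1l, the enzyme that releases formate from the mitochondrial pool, was low. It had 35, 0, 27 and 76 reads in open neural tubes 9, 10, 13 and 14 (3.46, 0, 1.62 and 9.07 CPM) and 17, 23, 109 and 31 reads in protrusions 1 to 4 (2.78, 3.30, 9.54 and 3.73 CPM). Open neural tube 14 and protrusion 3 were high and of like level, and open neural tube 10 had no read, which allows up to 0.529 CPM. At this mean level 30.2% of open neural tube values and 1.38% of protrusion values were at 0 among 1687 genes. The log2 fold change was 0.31 ± 1.29 (edgeR adjusted p = 0.948), and its 95% interval, −2.56 to 3.17, covers large changes in both directions.

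Thymidylate synthase (Tyms) uses methylene-tetrahydrofolate to make the thymidylate needed for DNA synthesis. It stood at 4.64, 24.3, 31.3 and 7.88 CPM in open neural tubes 9, 10, 13 and 14, and at 9.82, 15.3, 11.5 and 11.5 CPM in protrusions 1 to 4. Open neural tubes 10 and 13 were above and 9 and 14 below every protrusion, so the protrusions fell inside the open neural tube range. The log2 fold change was −0.58 ± 0.63 (edgeR adjusted p = 0.747; 95% interval −1.97 to 0.81), and it was −0.04 without open neural tube 13. The pseudogene Tyms-ps is listed with 0 reads in total, and the sources used here do not say how reads matching several genes were assigned.

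**Figure D2:**
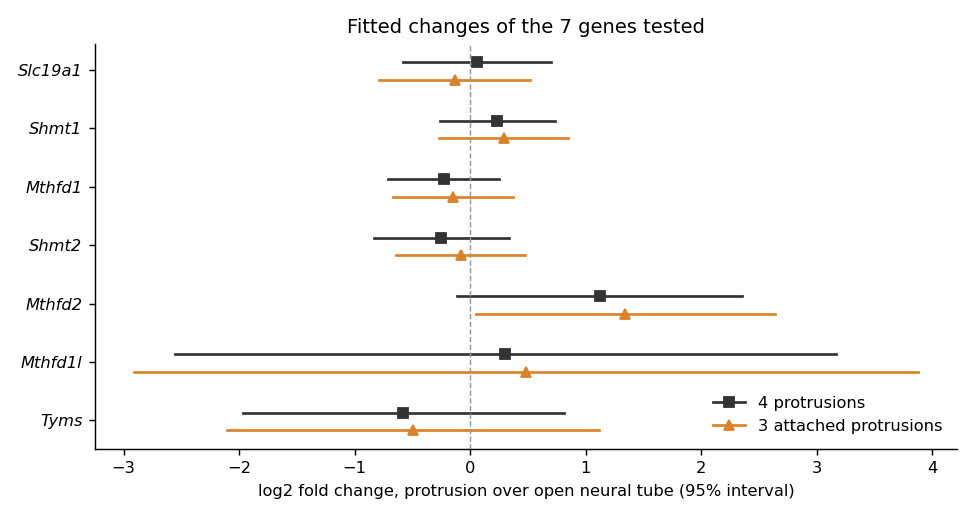
Fitted log2 fold change of protrusions over open neural tube (horizontal axis) with 95% intervals for the 7 genes tested; squares use all 4 protrusions, triangles the 3 attached ones. With 4 protrusions all 7 intervals include 0; the interval of Mthfd2 is −0.11 to 2.36, and 0.05 to 2.64 with the attached protrusions alone.

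The order of the levels was largely shared between libraries. Shmt1 and Shmt2 took the top 2 ranks in all 8 libraries and Mthfd1 and Slc19a1 the next 2, while Mthfd2, Tyms, Mthfd1l and Folr1 filled the last 4. Within these blocks neighbours changed places: Shmt2 ranked above Shmt1 in all 4 open neural tubes and in protrusions 2 and 4, and below it in protrusions 1 and 3. Tag recovery can differ between genes, so the order describes tag levels.

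Ratios between 2 genes of the same library need no scaling between libraries, and 4 were compared. The log2 ratio of Mthfd2 to Mthfd1, mitochondrial to cytosolic dehydrogenase, was −2.88, −3.77, −2.95 and −1.76 in open neural tubes 9, 10, 13 and 14, and −2.02, −0.52, −1.29 and −1.94 in protrusions 1 to 4. Open neural tube 14 lay among the protrusions, and the other 3 open neural tubes lay below all of them. The group means were −2.84 ± 0.83 and −1.44 ± 0.70 (SD, n = 4 each), a difference of 1.40 (exact permutation test, 2-sided p = 0.0857, adjusted over the 4 ratios 0.343).

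The log2 ratio of Shmt2 to Shmt1 was tight in open neural tube, 0.34 to 0.65, and wide in protrusions: −0.52, 0.65, −0.89 and 0.41 in protrusions 1 to 4. Protrusions 1 and 3 thus held more Shmt1 than Shmt2 tags, and protrusions 2 and 4 more Shmt2, as in the open neural tubes. The difference of the means was −0.53 (exact permutation test, 2-sided p = 0.371, adjusted 0.533). The ratio of Mthfd1l to Mthfd1 differed by 1.46 on the log2 scale (exact permutation p = 0.400, adjusted 0.533), a difference of 0.28 without open neural tube 10, where Mthfd1l had no read. The ratio of Folr1 to Slc19a1 differed by −0.11 (exact permutation p = 0.943, adjusted 0.943). With 4 libraries a group the smallest p this test can give is 0.0286.

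**Figure D3:**
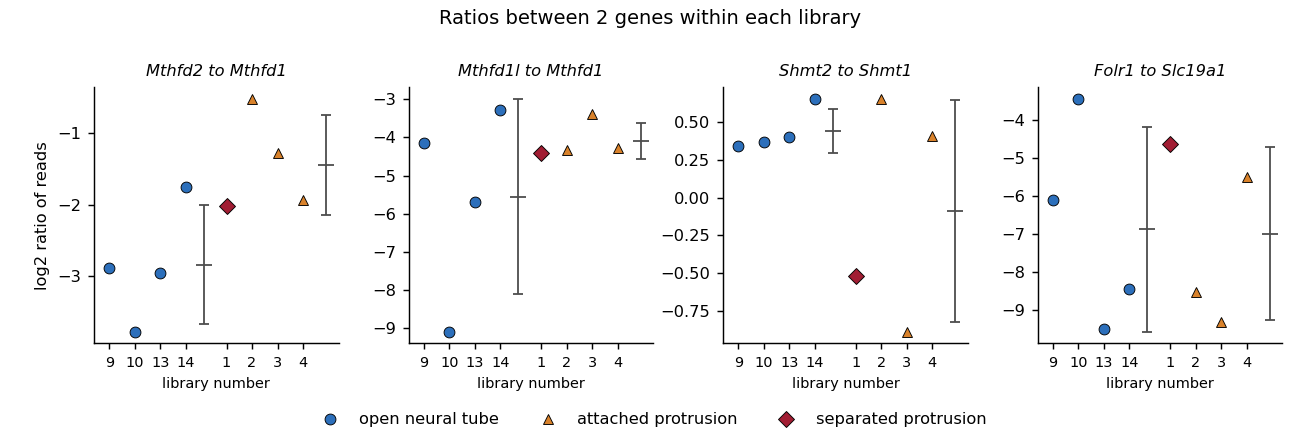
Log2 ratio of the reads of 2 genes (vertical axes, 1 read added to each) in the 8 libraries (horizontal axes, library numbers); symbols as by morphology label in the key, grey bars are mean ± SD of each group of 4. The Shmt2 to Shmt1 ratio lies between 0.34 and 0.65 in the 4 open neural tubes and between −0.89 and 0.65 in the protrusions.

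By morphology label, the 3 attached protrusions had 0 of 8 genes whose range was separate from open neural tube, against 24.8% of all 11466 genes tested in that comparison, and 0 of 7 passed the adjusted threshold, against 1.5%. Mthfd2 stood at 36.0 ± 15.0 CPM (SD, n = 3) in attached protrusions. Its log2 fold change over open neural tube was 1.34 ± 0.57 (edgeR unadjusted p = 0.0430, adjusted p = 0.262). No other gene of the 7 had an unadjusted p under 0.05. The share of all genes under 0.05 was not counted for the attached protrusions. With all protrusions it was 15.3% of genes tested, so this unadjusted p alone does not set Mthfd2 apart. The separated protrusion was a single library, so it is described with no test. It lay outside the range of the attached protrusions for 7 of 8 genes, as it did for 62.4% of all genes tested. It was above them for Slc19a1 (81.0 against 48.9 to 55.2 CPM) and Folr1 (3.11 against 0 to 0.962 CPM). It was below them for Shmt2 (120.2 against 160.1 to 246 CPM), Mthfd2 (15.2 against 19.2 to 47.9 CPM), Mthfd1, Mthfd1l and Tyms, and inside their range for Shmt1.

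The wider pathway was read from 9 lists that hold 71 genes with the 8 described above. Of these, 55 could be tested and 0 passed with edgeR (0.607% of all genes tested). An unadjusted p under 0.05 was found for 8, or 14.5% against 15.3% of all genes tested. The median log2 fold change of the 55 was 0.31 against 0.08 over all genes tested, and 40, or 72.7% against 53.7%, were above 0. The order of these medians depends on the low-count filter: with no filter they were 0.35 for 69 pathway genes and 0.47 for all genes. The group ranges were separate for 7 genes, 6 higher and 1 lower in protrusions, or 12.7% against 13.4% of all genes tested. DESeq2 called 6 of the 54 to which it gave an adjusted p (among them Dmgdh, Dnmt3b, Dut, Gldc and Mtfmt), or 11.1% against 7.39% of all genes. Limma-voom called 2 of 55 (Dmgdh and Gldc), or 3.64% against 3.35%, and with sample weights 1 (Dmgdh), or 1.82% against 1.71%. Dmgdh and Gldc passed the low-count filter only through the protrusions, where they were high, so their calls are no support for a change. The number of calls depends on the tool, the difference between these shares was not tested, and the part of the gap in detected genes in them was not tested.

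In thymidylate synthesis, Dut, which supplies the deoxyuridylate that Tyms methylates, stood at 277 to 588 CPM in open neural tube and 667 to 902 CPM in protrusions, a log2 difference of 0.82 ± 0.23 (edgeR adjusted p = 0.106, 0.0219 to 0.2396 over the alternatives). Of the 6 genes of this list, all tested, 3 had a fitted change above 0, against 53.7% of all genes tested.

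The glycine cleavage system delivers carbon to the mitochondrial folate pool from glycine. Its decarboxylase Gldc stood at 0.889, 0.706, 0 and 1.31 CPM in open neural tubes 9, 10, 13 and 14 and at 9.82, 14.8, 21.1 and 14.1 CPM in protrusions 1 to 4. Every protrusion was above every open neural tube, a log2 difference of 4.26 ± 1.15 (edgeR adjusted p = 0.0942, 0.000316 to 0.254 over the alternatives). Groups were separate, in either direction, for 13.4% of all genes tested. Gldc passed the low-count filter only through the protrusions, so its separation and p-values are no support for a change. The open neural tube values rest on 9, 4, 0 and 11 reads in libraries that detected fewer genes, and the part of that gap was not tested. Of the 4 genes of the system, 3 were tested. Gcsh, the lipoyl carrier protein, had a fitted log2 change of 0.67 ± 1.49 (adjusted p = 0.894 by edgeR), and Amt, the aminomethyltransferase, had reads in only 2 libraries.

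In the list of the mitochondrial folate cycle 7 of 8 genes were tested and the median was 0.31, against 0.08 over all genes tested. Dmgdh, dimethylglycine dehydrogenase, had at most 0.176 CPM in open neural tube, under the limit of detection, and 2.45, 7.03, 15.7 and 12.0 CPM in protrusions 1 to 4 (edgeR adjusted p = 0.0575, 7.13e-06 to 0.218 over the alternatives). Dmgdh passed the low-count filter only through the protrusions, so its separation and p-values are no support for a change. The part of the gap in detected genes in this difference was not tested. Mtfmt, which formylates the mitochondrial initiator tRNA, stood at 281, 483, 144 and 253 CPM in open neural tubes and at 138 to 158 CPM in protrusions (log2 fold change −1.04 ± 0.30, edgeR adjusted p = 0.112). Open neural tube 13 lay among the protrusions.

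**Figure D4:**
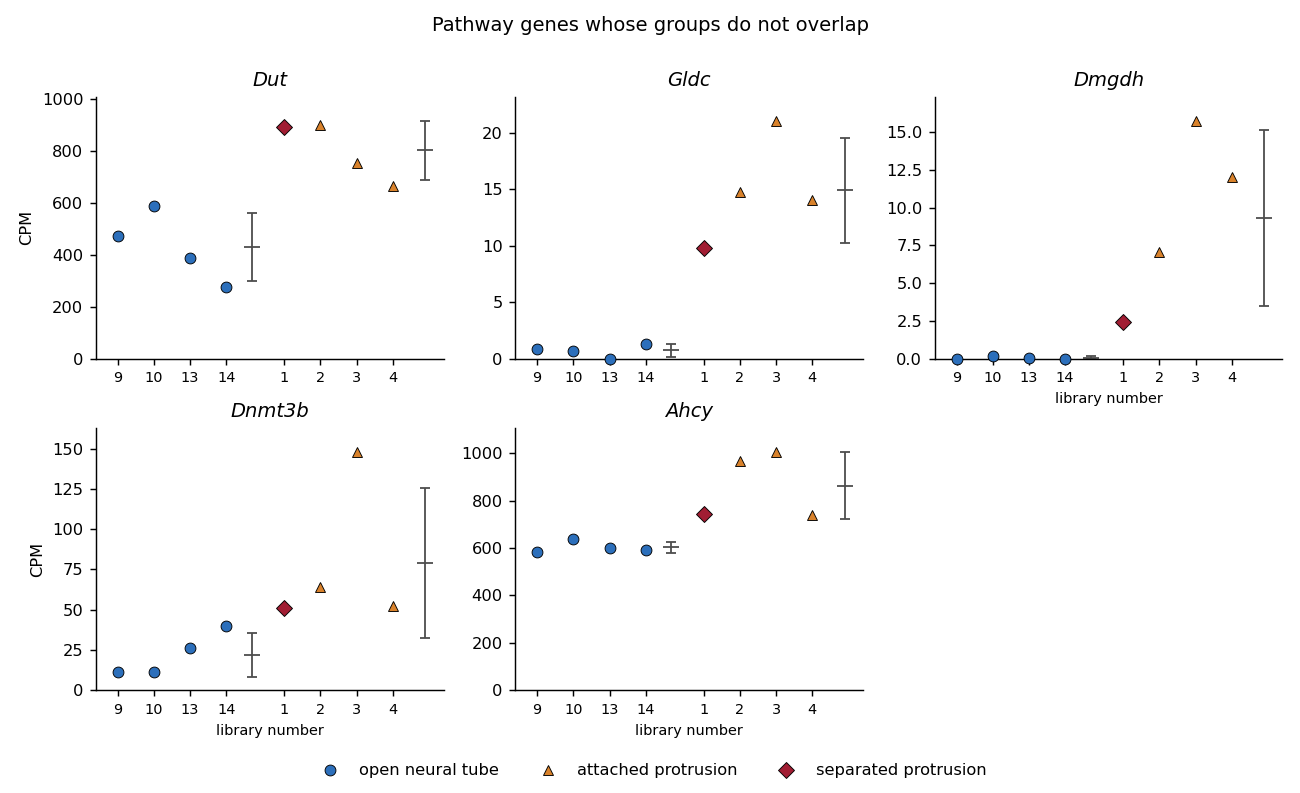
CPM (vertical axes, from 0) in the 8 libraries (horizontal axes, library numbers) of 5 pathway genes whose groups do not overlap; symbols by morphology label, grey bars are mean ± SD of each group of 4, drawn down to 0 at most. All protrusions lie above all open neural tubes in each panel (Dut 667 to 902 against 277 to 588 CPM). None of the 5 passed the edgeR threshold. Dmgdh and Gldc passed the low-count filter only through the protrusions. Groups were separate, in either direction, for 13.4% of all genes tested.

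In the methionine cycle and methylation list 13 of 17 genes were tested, 10 with a fitted change above 0 (median 0.41). Over all genes tested 53.7% were above 0 (median 0.08), and the difference was not tested. With no low-count filter the median over all genes was 0.47, and that of this list is not given here. Ahcy, which clears S-adenosylhomocysteine, stood at 584 to 636 CPM in open neural tube and 737 to 1004 CPM in protrusions (log2 fold change 0.42 ± 0.15, edgeR adjusted p = 0.201). The de novo DNA methyltransferase Dnmt3b stood at 10.9 to 39.5 CPM against 51.0 to 148 CPM (log2 fold change 1.71 ± 0.50, edgeR adjusted p = 0.118, 0.0186 to 0.301 over the alternatives). Both genes had separate groups. They were the only 2 of the 13 tested that did, or 15.4%, against 13.4% of all genes tested.

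Of 6 tested genes in the list of folate uptake and retention, 3 had a fitted change above 0 (median −0.08). Over all genes tested 53.7% were above 0 (median 0.08). Fpgs, which adds the glutamate tail that keeps folate in the cell, stood at 20.04 to 40.2 CPM in open neural tube, 10.47 CPM in the separated protrusion and 66.8 to 96.1 CPM in the attached ones. Its log2 fold change was 1.06 ± 0.55 with all protrusions (edgeR adjusted p = 0.401) and 1.41 ± 0.30 with the attached ones (adjusted p = 0.0591). Ggh, which removes that tail, stood at 24.8, 24.2, 5.46 and 28.5 CPM in open neural tubes and 6.25 to 13.6 CPM in protrusions (log2 fold change −1.25 ± 0.58, edgeR adjusted p = 0.339).

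Purine synthesis, with all 6 genes tested, had a median of 0.11, against 0.08 over all genes tested. Atic, which inserts a folate-borne carbon late in the purine ring, stood at 3.10 to 15.7 CPM in open neural tube, 2.13 CPM in the separated protrusion and 27.8 to 44.4 CPM in the attached ones (log2 fold change 1.70 ± 0.84, edgeR adjusted p = 0.376). Pfas, of the same route, had a fitted log2 change of −0.51 ± 0.22 (adjusted p = 0.304 by edgeR). In serine synthesis, which supplies the carbon donor, the fitted log2 change of Psph was 0.17 ± 0.24 (adjusted p = 0.815 by edgeR), and Phgdh had no reads in 3 of 4 open neural tubes and in the separated protrusion.

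The list of ATF4 and its amino acid stress targets was included because ATF4 induces several mitochondrial folate enzymes. Of 8 tested genes 7 had a fitted change above 0 (median 0.63), against 53.7% of all genes tested (median 0.08). An unadjusted p under 0.05 by edgeR was found for 0 of the 8, against 15.3% of all genes tested. The difference from all genes was not tested. With no low-count filter the median over all genes was 0.47, and that of this list is not given here. Atf4 stood at 6.91, 18.9, 22.8 and 0 CPM in open neural tubes, 13.9 CPM in the separated protrusion and 48.0 to 54.0 CPM in the attached ones (log2 fold change 1.70 ± 1.03, edgeR adjusted p = 0.491). Slc3a2, the heavy chain of amino acid exchangers, stood at 31.0 to 77.1, 38.3 and 89.8 to 158 CPM in the same order of groups (log2 fold change 0.83 ± 0.41, edgeR adjusted p = 0.372). Fpgs, Atic, Atf4 and Slc3a2 thus had the separated protrusion within or below the open neural tube range and the attached protrusions above it. This grouping was chosen after the values were seen and was not tested. Pfas went the other way: 82.6 to 133 CPM in open neural tube, 107.8 in the separated protrusion and 76.0 to 82.4 in the attached ones. The attached protrusions were separate from open neural tube for 13 higher and 3 lower of the 55 pathway genes, and for 24.8% of all genes tested. The separated protrusion lay outside the attached range for 62.4% of all genes tested.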

How the data were processed

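The deposited files hold whole-number counts of SAGE tags per gene symbol for 8 libraries, with no normalization per the file headers and values. Per the labels' protocols, libraries were made from 7 to 12 ng of total RNA with a SOLiD SAGE kit. The submitters' processing notes name build mm9; the aligner and counting rule, strand included, are not given in these sources, and no coordinates are printed because the reference is of another build. PCR copies cannot be told from separate molecules, so limits from 3 reads cover counting error only.

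CPM values are counts scaled to the library total. Groups came from the titles and source names. Differences were tested over all genes in R 4.3.3 with edgeR 4.0.16 (filterByExpr with minimum count 10, TMM, robust quasi-likelihood F test, 2-sided, Benjamini-Hochberg threshold 0.05); standard errors and 95% intervals come from the F statistic. Ratios used 1 added read and scipy 1.17.1. Alternatives used DESeq2 1.42.0 and limma 3.58.1. Scripts were tested on simulated data. The genes and lists were chosen with earlier results of these data known. Named are the 8 genes; from each pathway list up to 4 genes past the threshold, or else the 2 with the smallest p; the most abundant gene of each marker list; and for each of the 8 genes the gene of mean log2 CPM at least 5 with the most similar profile. Sox1 and Sox2 define the neural plate list, Kdr the endothelial list and Krt8 the surface ectoderm list. Amt and Tyms-ps were added after their values were seen. Some genes that this rule selects are not reported here.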

Additional observations from a re-analysis of the deposited data

Results flagged for a closer look

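In groups of 4 libraries, a value was set apart when its gap to the nearest other was too large a share of the range. The limit came from Dixon's test at the 95% level. For independent, normally distributed values, chance alone sets apart about 1 in 20 groups. The values here need not be so distributed, and some items overlap, such as Mthfd1l and its ratio to Mthfd1. The 6 set apart of the 58 checked are therefore not read as an excess. Protrusion 3 was the highest protrusion for Shmt1 (297 CPM, the others 156 to 175), for Mthfd1l (9.54 CPM, the others 2.78 to 3.73), for the log2 ratio of Mthfd1l to Mthfd1 (−3.38, the others −4.41 to −4.27) and for Dnmt3b (148 CPM, the others 51.0 to 64.1). The separated protrusion 1 was the lowest protrusion for Atf4 (13.9 CPM, the others 48.0 to 54.0). Open neural tube 13 was the only open neural tube with reads of Phgdh (3.90 CPM, the others 0). With the others at 0 the gap is always the whole range, so the rate of 1 in 20 does not apply to Phgdh.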

How the results depend on the processing

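The count of genes past the threshold among the 8 was 0 under each of 16 alternatives, over the genes each could test: 7 in most, 4 with the filter of 20 CPM in 4 libraries, and all 8, Folr1 included, with no filter alone. Over all genes, the 67 calls became 103 with upper-quartile factors, 157 with a filter of 20 CPM in 4 libraries, 795 with DESeq2, 370 with limma-voom, 189 with sample weights, and 1 to 172 when 1 library was left out. Among the 55 pathway genes, the count of 0 became 6, 2 and 1 with DESeq2, limma-voom and sample weights, and stayed 0 when 1 library was left out. The fitted change of Slc19a1 turned to −0.12 with sample weights and ranged from −0.13 to 0.34 with 1 library left out, that of Mthfd1l from −0.13 to 1.37, and the difference in the log2 ratio of Folr1 to Slc19a1 from −0.98 to 1.03. With a library left out, the smallest p of the exact test is 0.0571. The other ratios and the other 5 genes tested kept their direction. No paired analysis was possible because the groups share no replicate numbers. Counts of 0 limit what can be said of Folr1 and Mthfd1l.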

Other observations

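The gene with the profile most like each of the 8 was sought among well-expressed genes (mean log2 CPM 5 or more), by the root mean square difference of centred log2 CPM over the 8 libraries; this is a description of these libraries. It was Bag5 for Mthfd1 (0.0886, against a median of 0.485 over 4120 candidates), Pask for Slc19a1 (0.133), Ing5 for Shmt1 (0.136) and Deb1 for Shmt2 (0.199). For the more variable genes it was Tmed5 for Tyms (0.363), the cyclin Ccnd1 for Mthfd2 (0.386, median 1.03), Npepps for Mthfd1l (0.591) and Cyc1 for Folr1 (1.22, median 1.94).

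The most abundant gene of each marker list spanned these ranges. The neural gene Sox11 stood at 1821 to 2746 CPM in open neural tube and 784 to 1398 CPM in protrusions, T of the primitive streak at 0.296 to 16.9 and 36.8 to 737 CPM, and Dll1 of presomitic mesoderm at 12.7 to 79.9 and 110.3 to 430 CPM. The endothelial receptor Tek stood at 0 to 106 and 0.350 to 15.2 CPM, the embryonic globin Hba-x at 1.06 to 994 and 0.430 to 45.0 CPM, and Sox17 of endoderm at 0 to 15.7 and 0.717 to 14.3 CPM. Kdr, which defines the endothelial list, did not follow Tek: it was at 0 in every open neural tube and at most 0.327 CPM in protrusions. Cdh1 of epithelia stood at 15.3 to 43.3 and 62.0 to 871 CPM, and Foxa2 of notochord and floor plate at 7.69 to 16.6 and 1.80 to 30.8 CPM. Krt8, which defines the surface ectoderm list that holds Cdh1, overlapped between the groups (0 to 60.0 and 9.16 to 46.8 CPM).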
